A study of Mus musculus with 55 samples.

Results

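The nuclear genes for proteins of the mitochondrial ribosome were followed through both CEL-seq count tables of a mouse study of the Cdx and T transcription factors in axial progenitors. Members were the genes whose symbol starts with Mrpl or Mrps followed by a digit, leaving out pseudogenes. This gave 76 genes in each table, 47 named for the large subunit (Mrpl) and 29 for the small subunit (Mrps), of 15807 genes in the stem cell table and 14602 in the embryo table. The symbols alone define the members, though this set was chosen for study with earlier results of these data known.

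Mitochondria carry their own genome, which encodes a few core subunits of the respiratory chain and ATP synthase together with the rRNAs and tRNAs needed to translate them. The mitochondrial ribosome that makes these subunits takes all of its many proteins from nuclear genes, which are translated in the cytosol and imported. Its small subunit decodes the mRNA, and its large subunit forms the peptide bond and releases the chain at the inner membrane. Nuclear promoters of mitochondrial genes are known for sites of GABP (an Ets family factor also called NRF2), NRF1 and YY1.

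RNA came from epiblast stem cells (EpiSCs), pluripotent lines derived from pre-streak embryos, and from tailbuds, the growing posterior end of the embryo, microdissected at E8.0. The WT and Null EpiSC lines were first grown on mouse embryonic fibroblasts and then free of them, with Fgf-basic, Activin A and 2 µM of the Wnt secretion inhibitor IWP2. The 0h groups were sampled in IWP2, and the 24h groups after IWP2 had been withdrawn and 3 µM Chiron (CHIR99021, a GSK3 inhibitor that activates Wnt signalling) and 120 ng/ml Fgf8 added. There were 2 libraries in each of the 4 EpiSC groups, and 3 each of untreated WT, Cdx1-4 and Triple tailbuds. The labels derive the Null line from CdxKO embryos, but the same text also names Wnt3 null EpiSCs. They do not spell out the alleles behind Null, Cdx1-4 and Triple, nor how many lines, embryos or pools the libraries stand for. No group was kept for 24h without Chiron and Fgf8, so time in culture and treatment cannot be told apart.

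EpiSC libraries held 1114055 to 2914870 counts and tailbud libraries 389601 to 854852, so 3 counts in 1 library amount to 1.03 to 2.69 CPM (counts scaled to a common library size) in EpiSCs and 3.51 to 7.70 CPM in tailbuds. Cdx4 had 0, 1 and 0 counts in the Cdx1-4 tailbuds and 0 in every Triple tailbud, against 40.3, 42.2 and 48.0 CPM in WT. Cdx1 was lower in both mutants but still read, at 44.2 to 81.1 CPM in Cdx1-4 and 54.4 to 112 in Triple, against 153 to 217 in WT. Cdx2 was at 87.1 to 117 CPM in Triple tailbuds and 174 to 269 in WT, and at 10.4 and 12.7 CPM in Null EpiSCs at 24h against 30.3 and 13.4 in WT. CEL-seq reads the 3′ end, and whether the Cdx tags lie in the deleted parts is not given in the sources used here. The levels of 5 streak and axial progenitor markers (T, Mixl1, Tbx6, Nkx1-2 and Cdx2 itself) were summed. The sum was 69.0 to 72.3 CPM at 0h and 777 to 1030 CPM at 24h in WT EpiSCs, and 25.9 to 26.2 CPM and 1190 to 1220 CPM in Null. In tailbuds it was 520 to 657 CPM in WT, 496 to 670 in Cdx1-4 and 248 to 283 in Triple. Cdx2 is part of that drop in Triple, beside T (means of 194 CPM in WT and 108 in Triple), Tbx6 (161 and 50.6) and Mixl1 (13.5 and 5.32). Nkx1-2 was near 0 in all tailbud groups. In these bulk samples fewer cells of a type and less RNA per cell cannot be told apart. 1 tailbud column headed Cd4 in place of Cdx was read as a misspelt Cdx1-4 library.

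The promoters of 4 members that differed between groups are shown because they hold the short cores searched for here, which many members share. Each is the RefSeq window from 250 bases before to 50 after an annotated start of the gene (GRCm38.p6), written 5′ to 3′ on the gene's own strand. For Mrps27 that start is not the outermost one of the gene span given below. Mrpl17 lies on the minus strand at chr7:105811038-105811337, Mrps27 on the plus strand at chr13:99344536-99344835, Mrpl34 on the plus strand at chr8:71464676-71464975 and Mrpl3 on the plus strand at chr9:105053018-105053317. Capitals mark a match, on either strand, to the Ets core CCGGAAG, the NRF1 core GCATGCG or the YY1 core GATGGCG.
Mrpl17: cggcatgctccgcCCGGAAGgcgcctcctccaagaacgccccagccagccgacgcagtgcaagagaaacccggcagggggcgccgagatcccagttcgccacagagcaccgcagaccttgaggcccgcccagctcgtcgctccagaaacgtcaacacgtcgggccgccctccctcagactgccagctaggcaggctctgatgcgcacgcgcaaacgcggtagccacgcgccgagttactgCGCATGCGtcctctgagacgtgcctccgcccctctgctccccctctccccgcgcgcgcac
Mrps27: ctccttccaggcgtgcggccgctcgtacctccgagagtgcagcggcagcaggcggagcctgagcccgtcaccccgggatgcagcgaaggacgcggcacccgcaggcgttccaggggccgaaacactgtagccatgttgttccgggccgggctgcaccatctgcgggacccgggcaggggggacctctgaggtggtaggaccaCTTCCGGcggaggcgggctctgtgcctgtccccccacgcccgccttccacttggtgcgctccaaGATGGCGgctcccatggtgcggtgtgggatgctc
Mrpl34: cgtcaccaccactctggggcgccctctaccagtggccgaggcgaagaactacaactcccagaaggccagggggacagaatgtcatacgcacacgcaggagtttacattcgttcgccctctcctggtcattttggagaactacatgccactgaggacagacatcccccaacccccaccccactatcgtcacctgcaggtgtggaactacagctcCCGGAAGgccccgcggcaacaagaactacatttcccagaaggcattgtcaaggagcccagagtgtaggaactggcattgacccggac
Mrpl3: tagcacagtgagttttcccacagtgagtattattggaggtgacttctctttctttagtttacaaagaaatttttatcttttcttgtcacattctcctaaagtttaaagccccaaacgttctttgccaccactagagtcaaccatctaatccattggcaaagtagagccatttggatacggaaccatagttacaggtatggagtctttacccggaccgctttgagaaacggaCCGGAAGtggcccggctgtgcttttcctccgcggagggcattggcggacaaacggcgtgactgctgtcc
The Mrpl17 window holds an Ets and an NRF1 core, the latter a palindrome that matches on both strands, the Mrps27 window an Ets and a YY1 core, and the windows of Mrpl34 and Mrpl3 an Ets core each.

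RefSeq windows under Mrpl or Mrps symbols came from 69 genes, with 75 windows in all, called member windows here. They include Mrpl57 and Mrpl58, which are not among the 76 members, so fewer than 69 members have a window. The Mrpl57 window holds an Ets core and counts in the shares below. The Ets core stood in 34.7% of the member windows, in 8.86% of all 32851 promoter windows and in 18.7% of the windows of genes that passed the EpiSC filter on low counts. The NRF1 core stood in 10.7%, 3.58% and 6.81% of these windows, and the YY1 core in 10.7%, 3.49% and 6.95%. At least 1 of the 3 cores was found in 48.0% of member windows, against 14.5% of all windows and 29.0% of those of EpiSC-tested genes. In 6 member windows, those of Mrpl17, Mrpl22, Mrpl33, Mrps18a, Mrps18b and Mrps27, 2 different cores stood together, and no window held all 3. Among the other genes called below, the Mrps33 window held an Ets core, and those of Mrps6, Mrps30 and Mrps36 held none of these letters. No window was given for Mrps34. These matches are a description of the letters and carry no test.

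The 76 genes lie on 17 chromosomes, with the most, 10, on chromosome 11. The spans of 24 overlap another annotated gene, and since the counting is not stated to use strand, their reads may be shared with it.

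As a group the members took nearly the same small share of the RNA everywhere. Of the gene counts in each library, WT EpiSCs gave them 0.544% and 0.538% at 0h and 0.524% and 0.527% at 24h. Null EpiSCs gave them 0.561% and 0.586% at 0h and 0.558% and 0.551% at 24h. The shares were 0.564%, 0.561% and 0.567% in WT tailbuds, 0.541%, 0.564% and 0.576% in Cdx1-4 and 0.558%, 0.541% and 0.552% in Triple. Both Null libraries lay above both WT libraries at 0h and again at 24h. In each line both 24h libraries lay below both 0h libraries. In tailbuds every Triple library lay below every WT library, while the Cdx1-4 libraries overlapped both. These orders carry no test. The cytosolic ribosomal proteins, the parts of the ribosome that translates nuclear mRNAs, took a mean of 16.9% in WT EpiSCs at 0h and 20.0% at 24h, and of 17.5% and 20.6% in Null, with no overlap between the times in either line. The plot of shares by library sets these beside the nuclear subunits of oxidative phosphorylation.

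**Figure D1:**
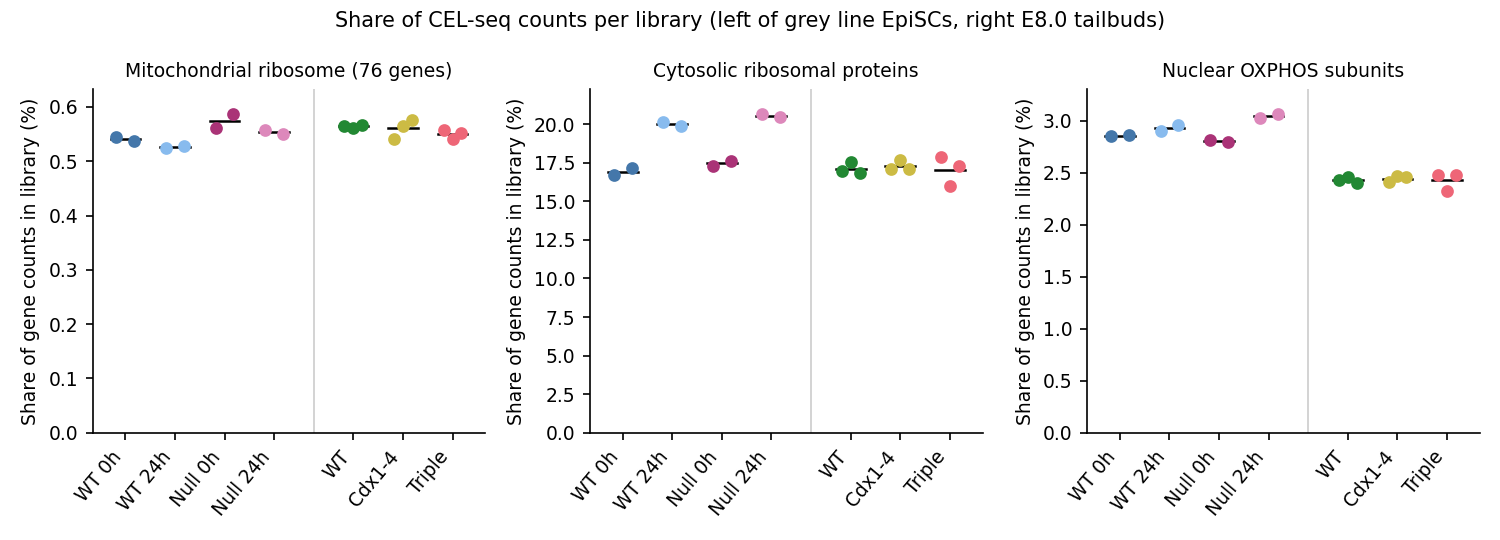
Share of all gene counts (%) taken by 76 mitochondrial ribosome genes, by cytosolic ribosomal proteins and by nuclear subunits of oxidative phosphorylation (OXPHOS), with 1 point per library, a bar at the group mean and axes from 0. The mitochondrial ribosome stayed between 0.524% and 0.586% in all 17 libraries, while the cytosolic ribosome was higher at 24h than at 0h in both EpiSC lines.

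Single members differed widely in level, and their order was much the same in stem cells and embryo. Because CEL-seq counts 3′ ends, CPM needs no scaling by transcript length, though capture of the 3′ end can differ between genes. The mean over the 8 EpiSC libraries ran from 6.17 CPM for Mrps28 to 195 CPM for Mrpl42, with a median of 69.0 CPM over the members and 28.2 CPM over all 9703 genes tested. In tailbuds the means ran from 4.48 CPM, again Mrps28, to 232 CPM for Mrpl12, with a median of 68.0 CPM over the 76 members and 55.0 CPM over all 6003 genes tested. Mrpl42, Mrpl51, Mrpl12 (part of the stalk that binds translation factors), Mrpl18 (which sits beside the structural RNA of the central protuberance) and Mrpl30 were the highest in EpiSCs. Mrpl12, Mrpl51, Mrpl42, Mrpl17 and Mrpl18 were the highest in tailbuds. Lowest in EpiSCs were Mrps28, Mrpl1 (of the mobile L1 stalk), Mrpl21, Mrps31 and Mrpl27, and all 5 failed the filter on low counts in tailbuds, as did Mrpl9 and Mrpl39, leaving 69 tested there. Of those 69, Mrpl10, Mrpl50, Mrpl32, Mrps9 and Mrps11 had the lowest means. Split by name alone, the median was 71.3 CPM for Mrpl and 61.0 CPM for Mrps genes in EpiSCs, and 75.0 and 64.8 CPM in tailbuds.

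Across the 76 genes the mean levels in EpiSCs and tailbuds had a Pearson correlation of 0.923 on the log2 scale and a Spearman correlation of 0.88. This is a description: the genes are not independent replicates, both sides share the 3′ end capture of each gene, and the 2 tables were scaled apart. For 4 members the levels of the EpiSC and tailbud libraries did not overlap. The share of all genes without such overlap was not computed, so the 4 cannot be judged against it. Mrpl12 (182 CPM in EpiSCs, 232 in tailbuds) and Mrpl37 (78.6 and 132) were higher in every tailbud library, and Mrpl53 (134 and 89.4) and Mrpl9 (36.3 and 16.9) lower. Mrps27 had the largest ratio of means in favour of tailbuds, at 108 against 51.0 CPM, but its libraries overlapped. The paralogs Mrps18a, Mrps18b and Mrps18c, related to bacterial S18 and each found at its own place in the ribosome, kept 1 order in EpiSCs at 0h, with 31.5, 70.8 and 58.0 CPM in WT and 29.0, 84.8 and 56.9 CPM in Null. In WT tailbuds they stood at 37.1, 63.5 and 53.4 CPM, where the libraries of Mrps18b and Mrps18c overlapped, as they did in Null EpiSCs at 24h (73.6 and 76.1 CPM).

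**Figure D2:**
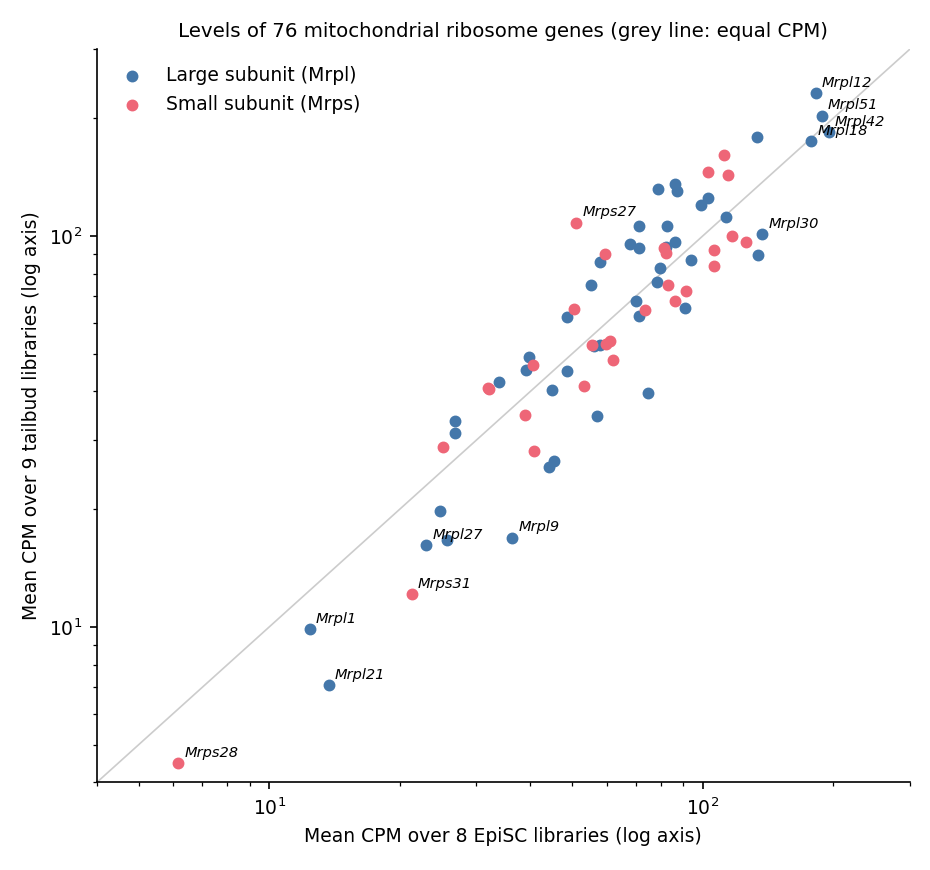
Mean CPM of each of the 76 genes over 8 EpiSC libraries (x) and 9 tailbud libraries (y), both on log axes. Genes are coloured by Mrpl or Mrps name, with a grey line at equal CPM. Most genes lie near the line, from Mrps28 at the bottom left to Mrpl12 and Mrpl42 at the top right, and Mrps27 and Mrpl9 stand farthest off it.

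In WT EpiSCs, 24h with Chiron and Fgf8 left the mitochondrial ribosome genes close to where they started. Of 76 tested, 0 were called higher and 2 lower, Mrpl17 and Mrps6, while 16.8% of all tested genes were called, 8.19% higher and 8.63% lower. A call means an adjusted p below 0.05 in edgeR's quasi-likelihood test with Benjamini-Hochberg adjustment over all genes tested, and all adjusted p-values below come from it unless another tool is named. The median log2 difference (24h minus 0h) was 0.046 over the members and -0.008 over all tested genes. For 73 members the 95% interval of the difference lay within 1 log2 unit of 0, which held for 64.8% of all tested genes, and no member had an estimate beyond 1, against 10.1% of all genes. Members were also measured more closely, with a median SE of 0.17 against 0.232 over all tested genes, which by itself favours narrow intervals and small estimates. The 2 largest rises were in scarce genes, Mrpl21 at 0.87 ± 0.329 (SE; edgeR adjusted p 0.0665) and Mrpl1 at 0.86 ± 0.351 (edgeR adjusted p 0.0956), and neither passed the test. Mrpl21 overlaps Ighmbp2, which had a like estimate (0.90 ± 0.382, edgeR adjusted p 0.108), and how reads were divided between them was not tested.

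Mrpl17 encodes a large subunit protein beside the exit of the peptide tunnel (chr7:105803782-105811087). It stood at 158 and 137 CPM in WT cells at 0h and at 106 and 101 CPM at 24h. The 2 times did not overlap, and the log2 difference was -0.51 ± 0.135 (SE, n = 2 against 2, edgeR adjusted p 0.00663). Without WT 0h replicate 1 it was -0.40, with an edgeR adjusted p of 0.135. Mrps6, a protein of the small subunit's platform, fell from 126 and 124 CPM to 87.7 and 88.7 CPM, a log2 difference of -0.50 ± 0.149 (edgeR adjusted p 0.016). The call was lost with DESeq2 (adjusted p 0.122) and without WT 0h replicate 1 (0.0967), WT 0h replicate 2 (0.068) or WT 24h replicate 1 (0.0987). Mrps6 overlaps Slc5a3, an inositol transporter gene, which moved the same way (-1.25 ± 0.271, edgeR adjusted p 0.00114), and how reads were divided between them was not tested. Mrps16, a small subunit protein, had the next smallest p, at 51.4 and 42.7 CPM before and 58.8 and 76.5 CPM after. Its log2 difference of 0.49 missed the threshold (edgeR adjusted p 0.0606), and it passed without WT 24h replicate 1 (0.71, edgeR adjusted p 0.0227).

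In Null EpiSCs members moved in both directions at 24h. Of 76 members 3 were called higher, Mrps36, Mrps30 and Mrps33, and 3 lower, Mrpl17, Mrps34 and Mrps27, beside 18.6% of all tested genes, 9.18% higher and 9.44% lower. The member median was 0.039 and that of all genes 0.01. Of the 6 called, 5 carry small subunit names, though 2 of these, Mrps36 and Mrps30, are not small subunit proteins.

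Mrpl17 fell here too, from 183 and 161 CPM to 115 and 106 CPM. The times did not overlap (log2 difference -0.63 ± 0.139, edgeR adjusted p 9.0e-04). Mrps34, a small subunit protein variants of which cause Leigh syndrome in people, fell from 79.0 and 89.5 CPM to 49.6 and 52.2 CPM (-0.72 ± 0.176, edgeR adjusted p 0.00285). These are the 2 members called in Null at 24h under every one of the 9 alternatives run, with adjusted p-values from edgeR or DESeq2 of at most 0.048 for Mrpl17 and 0.047 for Mrps34. In WT cells Mrps34 was at 59.9 and 49.0 CPM before and 52.6 and 56.1 CPM after, so its level in Null at 24h was like that of WT at both times. Mrps27 (chr13:99344767-99415562), a pentatricopeptide repeat protein that binds mitochondrial RNA, was at 67.6 and 34.3 CPM at 0h and 30.7 and 28.8 CPM at 24h. Its 0h libraries thus differed from each other by more than the means of the 2 times did, and the difference of -0.83 ± 0.25 (edgeR adjusted p 0.018) shrank to -0.20 (edgeR adjusted p 0.765) without Null 0h replicate 1. It was also lost with DESeq2 (adjusted p 0.0927) and without Null 24h replicate 1 (0.0847) or 2 (0.0886). Mrps27 overlaps the noncoding gene 6430562O15Rik, which had at most 1 count in any EpiSC library.

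Mrps36 rose from 106 and 100 CPM to 168 and 130 CPM (log2 difference 0.53 ± 0.149, edgeR adjusted p 0.00919). It carries a ribosomal name but is now known as a component of the 2-oxoglutarate dehydrogenase complex of the citric acid cycle. Mrps30, which sits in the large subunit despite its name, went from 59.4 and 72.3 CPM to 93.7 and 94.9 CPM (0.53 ± 0.181, edgeR adjusted p 0.0345). Mrps33, a small subunit protein, went from 80.2 and 76.8 CPM to 97.6 and 120 CPM (0.46 ± 0.158, edgeR adjusted p 0.04). None of these 3 overlapped between times, but each lost its call with DESeq2 and without any of 3 single libraries. The largest adjusted p so reached was 0.309 for Mrps36 (without Null 24h replicate 1), 0.333 for Mrps30 (without Null 0h replicate 1) and 0.329 for Mrps33 (without Null 24h replicate 2). The libraries whose loss also ended the calls were both Null 0h replicates for Mrps36 and for Mrps33, and both Null 24h replicates for Mrps30.

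**Figure D3:**
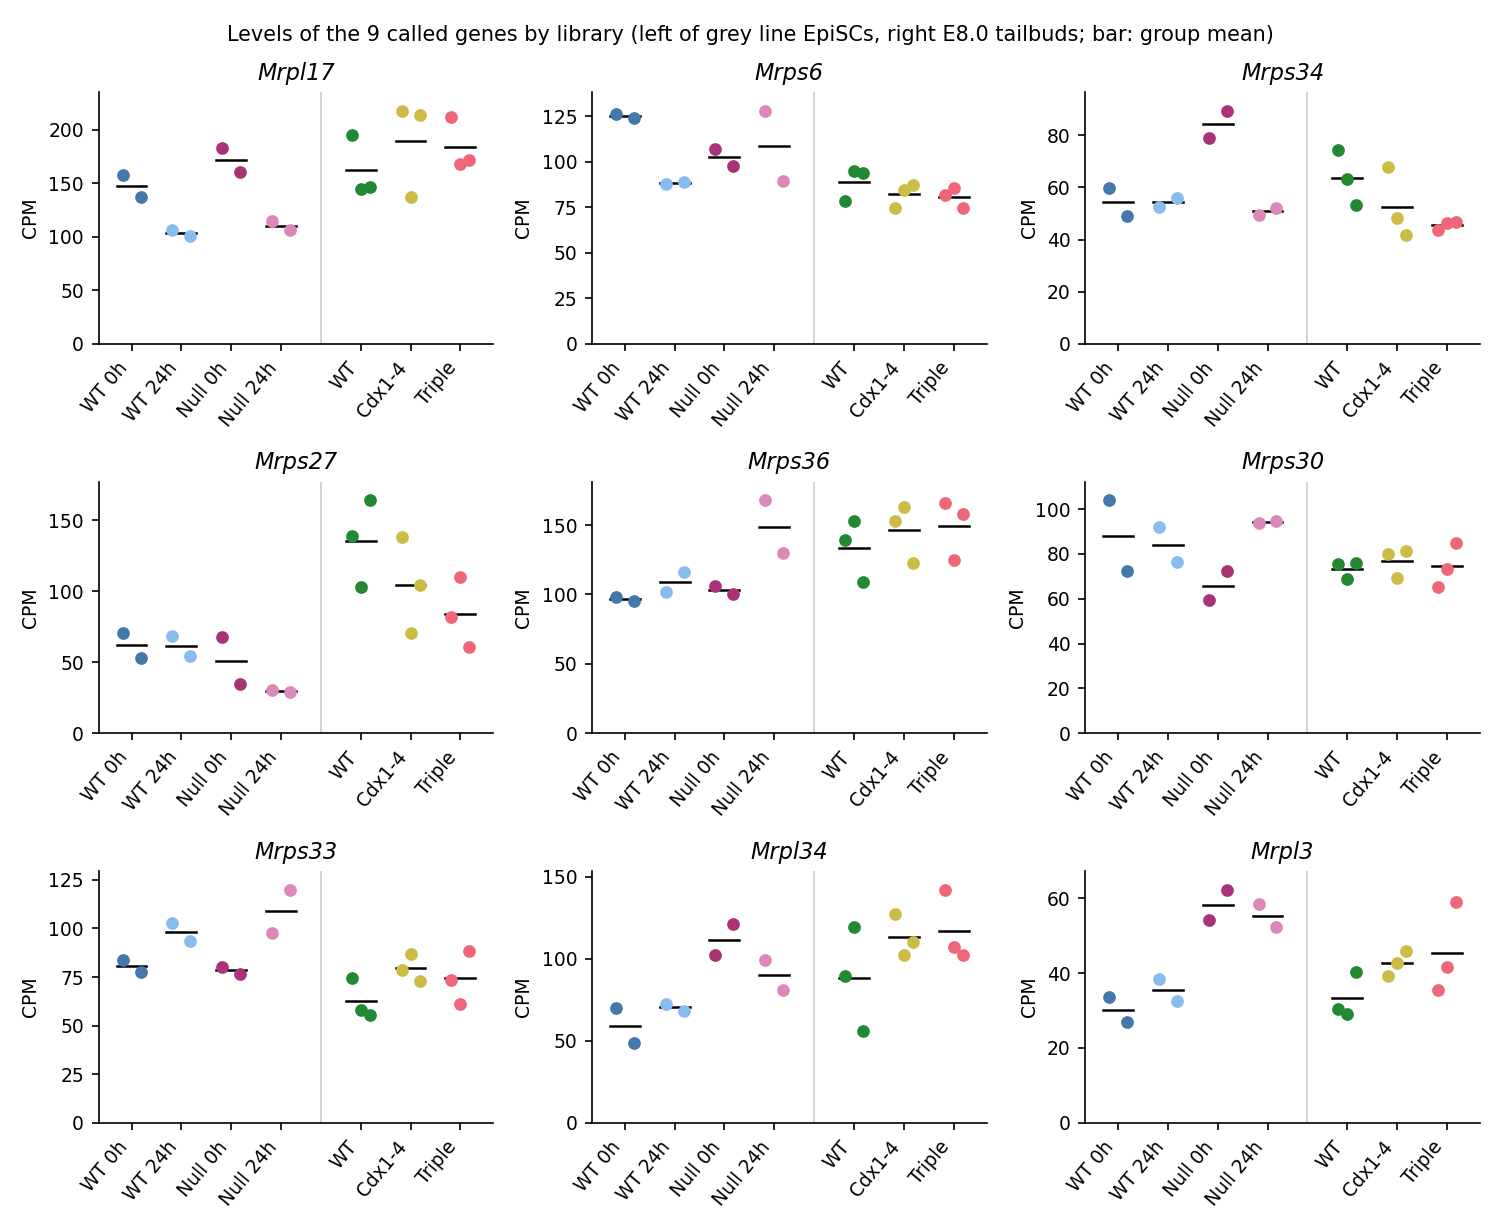
Level in CPM (y, from 0) of the 9 genes called in an EpiSC comparison, by group (x), with 1 point per library and a bar at the group mean. Mrpl17 is lower at 24h in both lines, Mrps34 is highest in the Null 0h libraries, Mrps27 is lowest in Null at 24h, and Mrpl3 is higher in both Null groups than in either WT group of EpiSCs.

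No member's 24h response was shown to differ between the lines. In the interaction test (Null response minus WT response) 0 of 76 members were called, beside 0.567% of all tested genes, and 5 had an unadjusted p below 0.05. DESeq2 called 0 members and 0.165% of all tested genes, but it gave no adjusted p to 2822 of the 9703 genes, 3 of them members. The smallest p-values belonged to Mrps34 (-0.71, edgeR adjusted p 0.249), Mrps6 (0.60, edgeR adjusted p 0.274) and Mrps27 (-0.84, edgeR adjusted p 0.312). The intervals of 63 members lay within 1 log2 unit of 0.

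Between Null and WT EpiSCs at 0h the share of members called higher in Null, 3.95%, was near the 3.32% of all tested genes. Of 76 members 3 were called higher, Mrpl34, Mrpl3 and Mrps34, and 0 lower, beside 6.67% of all tested genes, 3.32% higher and 3.35% lower. The member median (Null minus WT) was 0.105, with 55 of 76 positive, while the median of all tested genes was -0.013, with 48.6% positive. Without Null 0h replicate 1 the member median was 0.188. Cytosolic ribosomal protein genes had a like median of 0.093. The levels of 7 feeder fibroblast markers summed to 209 and 255 CPM in WT and 102 and 119 CPM in Null at 0h, with 7 of 7 detected in WT and 6 of 7 in Null (Lum at 0). Most of that gap was Col3a1, with means of 172 CPM in WT and 62.3 CPM in Null, while Dcn (3.28 and 4.2 CPM) and Thy1 (6.84 and 7.36 CPM) were not lower in Null. At 24h they summed to 115 to 149 CPM in WT and 86.2 to 108 CPM in Null. The summed level of 5 epiblast markers at 0h was 1020 to 1100 CPM in Null and 543 to 574 CPM in WT. That of 4 endoderm markers was 11.4 to 18.1 CPM in Null (4 detected) and 39.1 to 41.0 CPM in WT (3 detected). The endoderm gap lay in Sox17 (means of 22.2 CPM in WT and 5.1 in Null) and Foxa2 (14.2 and 2.48). Ttr (3.63 and 6.82 CPM) and Afp (0 and 0.316 CPM) were not lower in Null. The part of these cell types in the differences was not tested.

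Mrpl34, a small protein of the large subunit (chr8:71464926-71465753), was at 102 and 121 CPM in Null and 69.6 and 48.4 CPM in WT. The lines did not overlap (log2 difference 0.91 ± 0.175, edgeR adjusted p 8.7e-04). Mrpl3, which reaches toward the peptidyl transferase centre (chr9:105053268-105077466), was at 54.3 and 62.3 CPM in Null and 33.7 and 26.8 CPM in WT. Its difference was 0.93 ± 0.208 (edgeR adjusted p 0.00395). Mrps34 (chr17:24895120-24896289) was at 79.0 and 89.5 CPM against 59.9 and 49.0 CPM (0.62 ± 0.173, edgeR adjusted p 0.0243). All 3 calls were lost without WT 0h replicate 2, with edgeR adjusted p-values of 0.0559 for Mrpl34, 0.0841 for Mrpl3 and 0.242 for Mrps34. Mrps34 was also lost with DESeq2 (adjusted p 0.136) and without Null 0h replicate 1 (0.0596) or 2 (0.174).

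At 24h most members again had positive differences between Null and WT, and Mrps27 was lower in Null. Of 76 members 2 were called higher, Mrpl3 and Mrps36, and 1 lower, Mrps27, beside 8.05% of all tested genes, 3.7% higher and 4.35% lower. The member median was 0.126, with 56 of 76 positive, against 0.003 and 50.4% for all tested genes and a median of 0.113 for cytosolic ribosomal protein genes. The 0h and 24h comparisons use different libraries of the same lines.

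Mrps27 was at 30.7 and 28.8 CPM in Null and 68.6 and 54.2 CPM in WT. The lines did not overlap, and the log2 difference of -1.06 ± 0.229 (95% interval -1.53 to -0.60, edgeR adjusted p 0.00254) was the only estimate beyond 1 log2 unit among the members in any of the 8 comparisons. It passed with DESeq2 and missed only without WT 24h replicate 1 (-0.86, edgeR adjusted p 0.0819). Mrpl3 stayed higher in Null, at 58.5 and 52.2 CPM against 38.3 and 32.5 CPM (0.63 ± 0.189, edgeR adjusted p 0.034), although DESeq2 (adjusted p 0.219) and the loss of any 1 of the 4 libraries (adjusted p up to 0.286) ended the call. Mrps36 was at 168 and 130 CPM in Null against 102 and 116 CPM in WT (0.47 ± 0.14, edgeR adjusted p 0.0299). Its call was lost with DESeq2 (adjusted p 0.171), without Null 24h replicate 1 (0.519) and without WT 24h replicate 1 (0.255). Mrpl34, called at 0h, was at 99.1 and 80.9 CPM in Null and 72.4 and 68.3 CPM in WT at 24h and was not called.

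**Figure D4:**
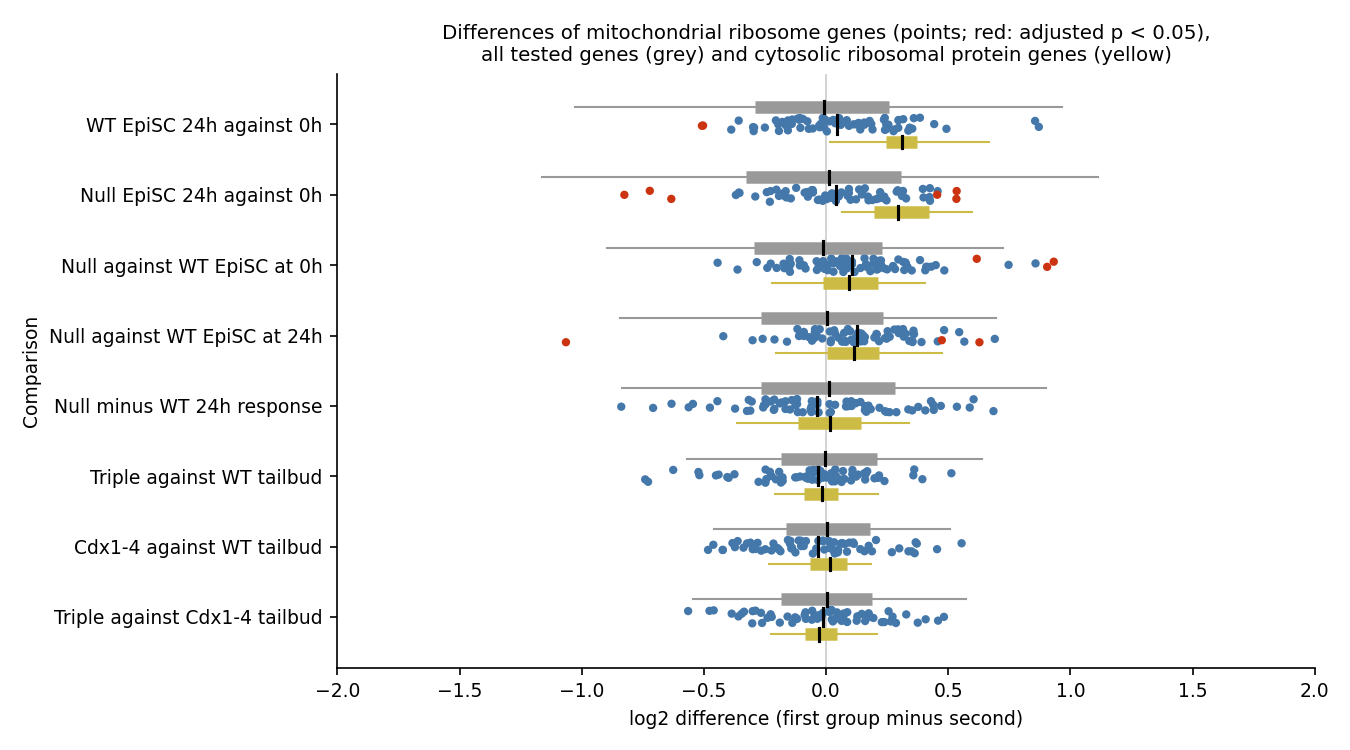
log2 differences (x) in the 8 comparisons (y): mitochondrial ribosome genes as points (red where called) with a black mark at their median, all tested genes as grey bars and cytosolic ribosomal protein genes as yellow bars (thick, 25th to 75th percentile; thin, 5th to 95th; black mark, median). The member medians stay between -0.035 and 0.126, whereas the cytosolic genes sit at 0.312 and 0.296 in the 2 comparisons of 24h with 0h.

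In E8.0 tailbuds no mitochondrial ribosome gene was called in any genotype comparison. For Triple against WT the test called 0 of 69 tested members, beside 2.9% of all tested genes, and 5 members had an unadjusted p below 0.05. DESeq2 called 0 members and 1.75% of all genes. For Cdx1-4 against WT it called 0 of 69, beside 0.133% of all genes, with 3 members below an unadjusted p of 0.05, and DESeq2 called 0 members and 0.117% of all genes. For Triple against Cdx1-4 it called 0 of 69, beside 2.02% of all genes, with 1 member below an unadjusted p of 0.05, and DESeq2 called 0 members and 1.15% of all genes. The member medians were -0.032, -0.031 and -0.013. The 95% intervals of 61, 67 and 64 of the 69 lay within 1 log2 unit of 0, so larger changes are not covered for the other 8, 2 and 5. The first 2 comparisons share the WT libraries.

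Mrps27 had the smallest p in Triple against WT. It was at 139, 103 and 164 CPM in WT, 138, 70.5 and 104 CPM in Cdx1-4 and 81.7, 110 and 60.7 CPM in Triple tailbuds. The highest Triple library overlapped the lowest WT library, and the log2 difference was -0.73 ± 0.237 (95% interval -1.21 to -0.25, edgeR adjusted p 0.105). It passed with no filter on low counts (edgeR adjusted p 0.0181), without the Triple library blue 1 (-0.97, edgeR adjusted p 0.033) and without the WT library blue 1 (edgeR adjusted p 0.0441). Against WT the Cdx1-4 tailbuds differed by -0.38 ± 0.214 (edgeR adjusted p 0.708). Mrpl35, a large subunit protein, was at 78.2, 103 and 60.6 CPM in WT and 43.5, 61.0 and 50.3 CPM in Triple (-0.63 ± 0.231, edgeR adjusted p 0.176). Mrpl33, another large subunit protein, was at 42.7, 36.9 and 68.2 CPM in WT and 27.2, 24.4 and 32.9 CPM in Triple (-0.74 ± 0.312, edgeR adjusted p 0.283). Its groups did not overlap.

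Among the other members named for tailbuds some groups did not overlap, but none passed the test. Mrpl2, near the peptidyl transferase centre, was at 75.7, 111 and 85.9 CPM in WT and 63.7, 60.8 and 64.5 CPM in Cdx1-4 (-0.48, edgeR adjusted p 0.567). Mrps21 was at 160, 158 and 106 CPM in WT and 193, 195 and 164 CPM in Cdx1-4 (0.36, edgeR adjusted p 0.603). Neither gene's groups overlapped. Mrps25 was at 68.4, 36.9 and 60.6 CPM in WT, 75.9, 74.6 and 91.5 CPM in Cdx1-4 and 68.0, 58.6 and 48.6 CPM in Triple. Its differences were 0.45 for Cdx1-4 against WT (edgeR adjusted p 0.627) and -0.48 for Triple against Cdx1-4 (edgeR adjusted p 0.409). Mrpl23, at the peptide exit, was at 70.8, 95.2 and 93.6 CPM in Triple and 59.6, 71.9 and 66.6 CPM in Cdx1-4, which overlap (0.41, edgeR adjusted p 0.487). Mrps24 was higher in every Triple than in every Cdx1-4 library, at 62.6, 58.6 and 50.3 against 38.0, 38.7 and 45.8 CPM (0.48, edgeR adjusted p 0.487). Members called in EpiSCs, such as Mrpl17 (195, 145 and 147 CPM in WT and 212, 168 and 172 CPM in Triple) and Mrpl3 (30.5, 29.0 and 40.4 CPM in WT and 35.4, 41.5 and 59.0 CPM in Triple), overlapped between tailbud groups.

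**Figure D5:**
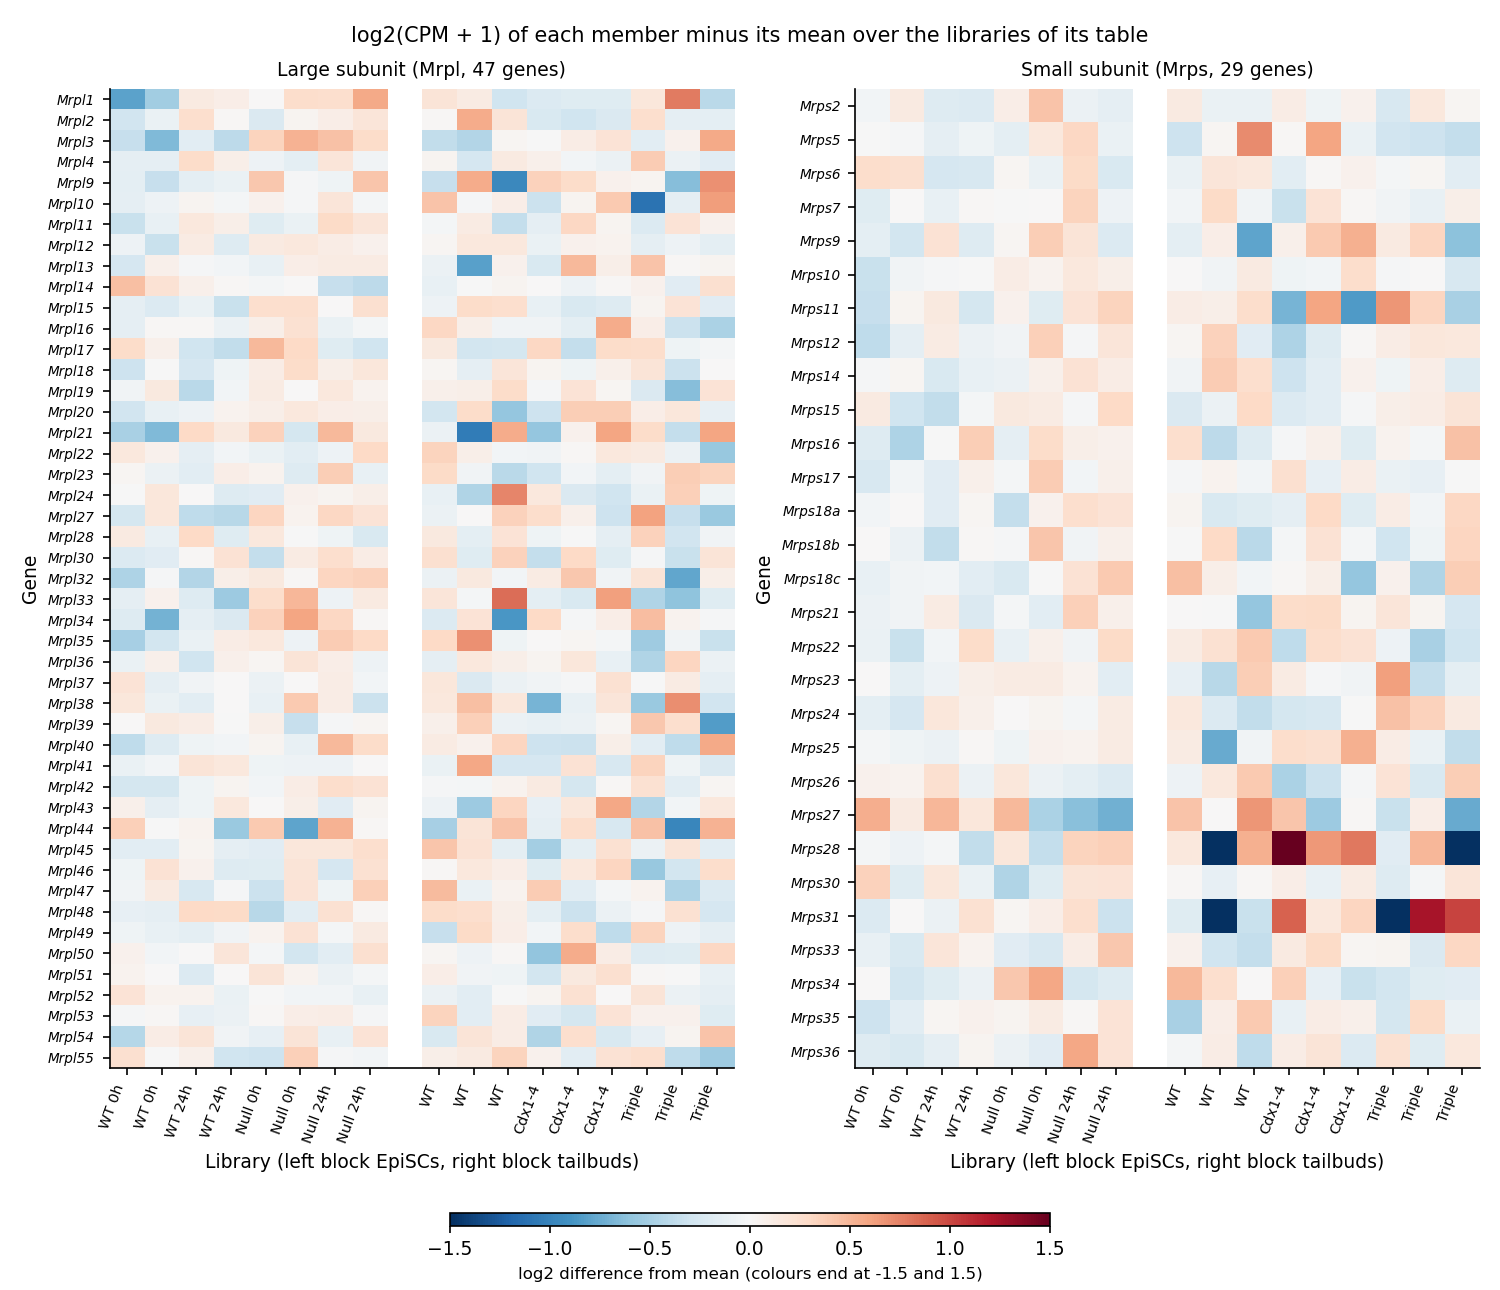
log2(CPM + 1) of each of the 76 genes in each of the 17 libraries, minus the gene's mean over its own table (colour, ending at -1.5 and 1.5). Genes named Mrpl are on the left panel and those named Mrps on the right. Most cells are pale, rows with strong colour in tailbuds such as Mrps28 and Mrps31 belong to scarce genes that were not tested there, and the Null 24h libraries are blue for Mrps27.

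Other genes of mitochondrial translation were read from lists of known parts. Of 7 tested mitochondrial ribosome proteins or partners that carry other symbols, 1 was called in Null against WT EpiSCs and 0 in the other comparisons. Between these lines 6.67% of all tested genes were called at 0h and 8.05% at 24h. The 1 called at both times was Gadd45gip1 (also CRIF1), a large subunit protein near the peptide exit. It was at 25.9 and 38.0 CPM in Null and 74.9 and 64.3 CPM in WT at 0h (-1.16 ± 0.207, edgeR adjusted p 3.2e-04). At 24h it was at 30.7 and 34.1 CPM in Null and 88.1 and 77.2 CPM in WT (-1.37 ± 0.187, edgeR adjusted p 4.3e-06). Both estimates are larger in size than that of any tested member in the 8 comparisons. In tailbuds it was at 96.5, 81.8 and 88.4 CPM in WT, 42.0, 59.4 and 49.9 CPM in Cdx1-4 and 49.0, 51.3 and 62.4 CPM in Triple. Every mutant tailbud library lay below every WT one, but the log2 differences of -0.84 ± 0.207 for Cdx1-4 (edgeR adjusted p 0.105) and -0.71 ± 0.219 for Triple (edgeR adjusted p 0.0684) missed the threshold.

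Of the assembly and rRNA modification factors, 1 of 26 tested was called higher at 24h in WT and 2 of 26 higher and 2 lower in Null. These are 3.85% and 15.4% of the list, beside 16.8% and 18.6% of all tested genes. The factor called in both lines was Grsf1, an RNA-binding protein of mitochondrial RNA granules that helps assemble the small subunit. It rose from 79.7 and 71.2 CPM to 344 and 290 CPM in WT (2.07 ± 0.138, edgeR adjusted p 9.8e-14) and from 62.6 and 80.4 CPM to 292 and 322 CPM in Null (2.12 ± 0.148, edgeR adjusted p 3.1e-13). In tailbuds it was at 357, 274 and 341 CPM in WT, 355, 322 and 416 CPM in Cdx1-4 and 112, 125 and 128 CPM in Triple. Grsf1 was the 1 factor called of 15 tested in Triple against WT (-1.42 ± 0.157, edgeR adjusted p 7.2e-09), beside 2.9% of all tested genes. In Null at 24h Tfb1m, which methylates the small subunit rRNA, was lower (-1.39 ± 0.455, edgeR adjusted p 0.0277). Of 12 tested translation factors Tufm, the mitochondrial elongation factor Tu, was called higher in WT at 24h (0.46), and Mtfmt, which formylates the initiator tRNA, lower in Null at 24h (-0.74). Tsfm, the exchange factor of Tufm, was lower in Null than in WT at 24h (-1.24), and Tmem70, an ATP synthase assembly factor kept on that list, higher at 0h (0.74) and 24h (0.64). The calls were 8.33% of these 12 genes in each line at 24h against 0h, beside 16.8% of all tested genes in WT and 18.6% in Null. Between the lines they were 8.33% at 0h and 16.7% at 24h, beside 6.67% and 8.05% of all tested genes.

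Many genes of the cytosolic ribosome were called higher after 24h. Of 82 tested cytosolic ribosomal protein genes 50 were called higher and 0 lower in WT at 24h, and 44 higher and 0 lower in Null, with medians of 0.312 and 0.296. These are 61.0% and 53.7% of the list, beside 16.8% and 18.6% of all tested genes called in either direction. The smallest p-values were those of Rplp1 (0.71) and Rpl12 (0.67) in WT and of Rps3 (0.66) and Rpl13 (0.65) in Null. Of 80 tested nuclear subunits of oxidative phosphorylation 10 were higher and 2 lower in WT, and 15 higher and 0 lower in Null, with medians of 0.098 and 0.131. The shares called in either direction, 15.0% and 18.8%, lie near those of all tested genes, but most of the calls were higher. In Null all of the 18.8% were higher, against 9.18% of all tested genes. Differences were positive for 76.2% of the list in WT and 72.5% in Null, against 49.1% and 50.9% of all tested genes. The calls were led by Cox8a (0.43) and Ndufb5 (0.51) in WT and by Cox6c (0.68) and Ndufb11 (0.85) in Null. The member counts in the same 2 comparisons were 0 higher and 2 lower, and 3 higher and 3 lower, with medians of 0.046 and 0.039. Members were measured less closely, with a median SE of 0.17 in WT and 0.178 in Null. For cytosolic genes it was 0.093 in both, so a shift of equal size would be called less often among members. The difference between the lists was not tested. Among 8 tested candidate regulators, Mycn was higher in Null than in WT at 0h (81.5 and 60.5 against 47.1 and 25.1 CPM; 0.99, edgeR adjusted p 0.00395). Gabpb1, which forms GABP with an Ets partner, was lower at 24h in WT (32.6 and 28.5 to 16.7 and 23.0 CPM, log2 difference -0.67, edgeR adjusted p 0.0496). Each of these calls is 12.5% of the 8 regulators, beside 6.67% of all tested genes between the lines at 0h and 16.8% in WT at 24h.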

How the data were processed

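RNA was measured by CEL-seq from 10 ng of total RNA in 17 libraries of the 55 samples of the series. The authors deposited 1 table of raw counts per gene for EpiSCs and 1 for tailbuds, mapped to mm10 per the submitters' processing notes; the counter, and whether UMIs were collapsed, are not given in the sources used here. Tailbud columns carry a genotype, a colour and a number that match no single sample, so they were used as replicates of their genotype. The labels do not say whether replicates were separate cultures or animals, so p-values measure the spread between these libraries, which may be technical. Region lists of the series are in mm9 and were not used here. The 8 spike-in entries of each table (2 reads and 1 read) were left out.

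Each table was fitted alone with edgeR 4.0.16 in R 4.3.3 (TMM scaling, filterByExpr, robust glmQLFit, glmQLFTest, 1 mean per group), with 9703 and 6003 genes tested and 4 and 6 residual degrees of freedom. SEs come from the F statistic, and CPM from TMM-scaled totals. Calls are Benjamini-Hochberg adjusted p below 0.05 over all genes of the table. Alternatives were RLE scaling, no filter, DESeq2 1.42.0, the compared groups alone, a replicate block (EpiSCs), the column colour as a term and the blue libraries alone (tailbuds), and leaving out each library. The code was tested on simulated data.

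The members and lists were chosen with earlier results of these data known. Text names the members called in each comparison (at most 6 in each direction, at 20 CPM or more in the higher group), or, with fewer than 3 called, those with the smallest p up to 3, and the 5 highest and lowest of each table. It also names Mrps36, the Mrps18 paralogs and up to 2 called genes per related list and comparison. Mrpl1, Mrpl21, Mrpl9, Mrpl12, Mrpl37 and Mrpl53, the members with 2 promoter cores, and Gadd45gip1 in tailbuds were named after their values were seen. Positions are from the RefSeq table of GRCm38.p6, in which all 76 symbols matched. Lists of aminoacyl-tRNA synthetases (21 tested in EpiSCs) and of mitochondrial transcription and RNA maintenance genes (18 tested) were read the same way.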

Additional observations from a re-analysis of the deposited data

How the results depend on the processing

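No member recomputed under the alternatives changed direction; Mrpl1, Mrpl21 and the genes of the related lists were not recomputed. Of 84 counts of members called higher 72 stayed within 1.5 times, as did 76 of 84 counts called lower. Among 84 medians 74 moved by less than the spread between libraries. Of 279 values of single members 237 kept their side of the threshold, 36 lost the call and 6 gained one. Many of the 279 belong to members not called in the main fit, which cannot lose a call, so the 36 losses fall on the rest. In the interaction and in tailbuds the counts likewise start at 0. With no filter on low counts 1 member was higher in WT at 24h and 1 lower in Triple against WT. With DESeq2 1 member was lower in WT at 24h, 0 were higher in Null at 24h and 0 were higher in Null against WT at 24h. Deviations of same-numbered EpiSC libraries from their group means were weakly and positively correlated (0.007 to 0.088). Over so many genes with few counts, this cannot settle whether the replicate numbers pair the libraries. With the replicate block 1 member was called higher and 2 lower in WT at 24h, and 3 higher and 1 lower in Null against WT at 24h. The calls over all genes went from 1632 to 1939 in WT at 24h and from 55 to 123 in the interaction. The colour and number in the tailbud column names match no sample label and were not used as a block. With colour as a term 0 members were called, and the calls over all genes went from 174 to 181 in Triple against WT and from 121 to 124 in Triple against Cdx1-4. The blue libraries alone also gave 0 members, with 74 and 38 calls over all genes from 2 libraries a group. The cause of these shifts was not tested.

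Leaving out 1 library at a time, members called in WT at 24h ranged from 0 to 1 higher and 0 to 2 lower, with medians of 0.03 to 0.062. In Null at 24h they ranged from 0 to 2 higher and 2 to 3 lower (0.011 to 0.053). In Null against WT they ranged from 0 to 3 higher at 0h (0.081 to 0.188), and from 0 to 2 higher and 0 to 1 lower at 24h (0.106 to 0.142). The interaction median ranged from -0.106 to 0.042, on both sides of 0. Triple against WT gave 0 to 1 lower, and the Cdx1-4 against WT median ranged from -0.087 to 0. With 1 library left in a group, that library is assumed to vary like the others. Over all genes DESeq2 called 844, 1030, 258 and 295 genes in the first 4 EpiSC comparisons, where edgeR called 1632, 1807, 647 and 781. In Null against WT, DESeq2 gave no adjusted p to 2446 genes at 0h (2 of them members) and 3386 at 24h (3 members). Such genes count as not called. In tailbuds 7 of the 76 members were too scarce to test.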

Other observations

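Further lists of genes around mitochondrial gene expression, left out of the comparisons above, were read the same way. Of 21 tested mitochondrial aminoacyl-tRNA synthetase genes 1 (4.76%) was called in WT EpiSCs at 24h against 0h, beside 16.8% of all tested genes. These genes charge the tRNAs used by the mitochondrial ribosome. The called one, Gars, which serves both cytosol and mitochondria, was lower (490 and 452 to 391 and 274 CPM, log2 difference -0.49 ± 0.123, edgeR adjusted p 0.00457). In Null against WT at 24h Aars2, the mitochondrial alanyl-tRNA synthetase, was higher (1.39 ± 0.395, edgeR adjusted p 0.0229). It was the 1 synthetase called there (4.76%, beside 8.05% of all tested genes). Of 18 tested genes of mitochondrial transcription, replication and RNA maintenance, Ptcd2 was called higher in WT at 24h (0.52 ± 0.163, edgeR adjusted p 0.0237). In Null at 24h Hsd17b10, a subunit of mitochondrial RNase P, was higher (0.47 ± 0.14, edgeR adjusted p 0.0157) and Polg, the mitochondrial DNA polymerase, lower (-1.02 ± 0.348, edgeR adjusted p 0.0367). Tfam, which packages mitochondrial DNA and starts its transcription, was higher in Null than in WT at 24h, at 193 and 210 against 151 and 142 CPM (0.45 ± 0.128, edgeR adjusted p 0.0233). The calls among these 18 genes were 5.56% of the list in WT at 24h, 11.1% in Null at 24h and 5.56% between the lines at 24h. Over all tested genes 16.8%, 18.6% and 8.05% were called. In tailbuds 0 of 12 tested synthetase genes and 0 of 11 tested maintenance genes were called with edgeR in the 3 genotype comparisons. Of all tested genes 2.9% were called in Triple against WT, 0.133% in Cdx1-4 against WT and 2.02% in Triple against Cdx1-4. With so few genes tested, 0 calls lies near these shares. At an unadjusted p below 0.05 there were 1, 1 and 0 synthetase genes and 0, 1 and 1 maintenance genes in Triple against WT, Cdx1-4 against WT and Triple against Cdx1-4, and other tools were not read for these lists.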
